A study of Mus musculus with 34 samples.

Results

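Endothelial cells line the capillaries and larger vessels of skeletal muscle, and 10 genes that mark them were followed in muscle of mice that lacked or overproduced glycogen synthase. The genes were Cdh5, Esam, Pecam1, Cldn5, Kdr, Tek, Tie1, Ramp2, Emcn and Egfl7. They were found by symbol in the platform annotation, which gave 14 probe sets (2 for Cdh5, 4 for Egfl7 and 1 for each of the other 8 genes) out of 22690 on the array. A further 2 probe sets carried the symbols of Ramp2 and a neighbouring gene together and were not used. Where 1 value per gene is given, it comes from the probe set that was brightest over the 26 muscle arrays.

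The study measured total RNA on 34 Affymetrix arrays. MGSKO mice (knockout of muscle glycogen synthase) and wild-type (WT) mice of 3 months gave anterior tibialis (4 and 4 arrays), medial gastrocnemius (3 and 5) and liver (4 and 4). Mice of the GSL30 line, labelled as overexpressing glycogen synthase, and WT mice of 8 months gave medial gastrocnemius (5 and 5). The strain is given as C57BL6/129SV, in the tibialis labels only. The labels state neither which part of the gene was removed nor which promoter drives the overexpression, and GSL30 is the name of a single line. Each muscle and age, and liver, carried its own prefix in the array titles, so array set, tissue and age cannot be told apart, whereas each mutant group shared its set with its WT group.

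Vascular endothelial cells are held together by adherens and tight junctions, and their growth and survival depend on receptor tyrosine kinases for VEGF and angiopoietins. Muscle capillaries run alongside the fibres and deliver oxygen, fatty acids and glucose to them. Oxidative fibres are commonly more densely supplied with capillaries than glycolytic ones. In RNA from whole tissue, a lower marker level can come from fewer endothelial cells, from less of that RNA in each cell or from a larger share of RNA of other cells. These cannot be told apart here.

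Values are intensities on a linear scale, as deposited. Differences are on the log2(intensity + 50) scale, mutant minus WT, each with its limma standard error (SE) and with a p adjusted by Benjamini-Hochberg over the 13576 probe sets tested in each comparison. A probe set passed where that adjusted p was under 0.05. Members and lists were chosen with earlier results of these data known, so counts set beside shares over all probe sets are descriptions.

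The labels could first be read against the data. Gys1, which encodes muscle glycogen synthase, read 34.2 to 72.5 in MGSKO tibialis and 8184 to 9958 in WT tibialis. It read 58.1 to 165 in MGSKO gastrocnemius and 3955 to 6378 in WT gastrocnemius at 3 months, and 7896 to 10404 in GSL30 and 5840.0 to 7185 in WT gastrocnemius at 8 months. These values are from its brighter probe set. The dimmer one read 14.8 to 37.4 in MGSKO and 1462 to 3810 in WT tibialis. It read 11.2 to 160.4 in MGSKO and 1796 to 2983 in WT gastrocnemius at 3 months. At 8 months it read 5226 to 8338 in GSL30 and 289 to 3332 in WT. The gastrocnemius arrays also carried RNA of hepatocyte genes. The median of 11 hepatocyte genes reached 3.46 to 18.7% of the WT liver level in MGSKO gastrocnemius and 3.34 to 66.2% in WT gastrocnemius at 3 months. It reached 0.318 to 0.829% in GSL30 and 0.827 to 2.25% in WT at 8 months, against 0.209 to 0.482% in the tibialis arrays. WT gastrocnemius replicates 1, 2 and 4 at 3 months and replicate 2 at 8 months stood apart by this measure, and the members' values without them are given with the hepatocyte genes further on.

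All 10 genes were brighter in muscle than in liver, where other endothelial cells line the sinusoids. WT tibialis minus WT liver gave log2 differences of 0.92 (Kdr) to 2.31 (Emcn), with a median of 1.74 against 0.18 over all probe sets tested. The 10 genes passed, in a comparison where 41.1% of all probe sets passed in that direction. Emcn read 1517, 1324, 1247 and 1744 in WT tibialis, against 258, 179.8, 272 and 308 in WT liver. Kdr, the gene with the smallest difference, read 1678, 2436, 2342 and 1628 in WT tibialis, against 1082, 958, 1099 and 986 in WT liver. Neither gene overlapped between the tissues, where 37.9% of all probe sets were apart in that direction. Each of the 10 means in either liver group lay below its means in all 6 muscle groups, a pattern whose share over all probe sets was not counted.

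The RefSeq promoter table matched 6 of the 10 genes, with 8 windows in all because Egfl7 had 3. Endothelial promoters are known for binding sites of ETS factors, whose core is GGAA, so 3 windows are shown to set out how far members that share a cell type differ in that core. Tie1 had the most copies, Cldn5 had none, and Kdr lay between. Each window is 300 bases around an annotated transcript start in GRCm38.p6, written 5′ to 3′ on the strand of the gene, and capitals mark GGAA or its reverse complement TTCC.
Tie1, chr4:118489800-118490099, minus strand: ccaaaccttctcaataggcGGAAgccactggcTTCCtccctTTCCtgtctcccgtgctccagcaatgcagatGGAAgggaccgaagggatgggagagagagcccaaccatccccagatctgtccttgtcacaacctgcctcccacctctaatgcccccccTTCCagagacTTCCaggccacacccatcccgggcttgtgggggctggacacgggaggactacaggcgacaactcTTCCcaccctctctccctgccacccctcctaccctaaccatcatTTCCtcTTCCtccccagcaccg
Kdr, chr5:75978406-75978705, minus strand: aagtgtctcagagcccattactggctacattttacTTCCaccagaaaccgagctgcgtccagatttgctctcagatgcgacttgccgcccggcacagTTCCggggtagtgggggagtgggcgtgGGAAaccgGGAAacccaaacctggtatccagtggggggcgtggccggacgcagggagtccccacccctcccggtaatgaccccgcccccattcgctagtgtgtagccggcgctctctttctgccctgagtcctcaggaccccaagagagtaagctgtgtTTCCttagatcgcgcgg
Cldn5, chr16:18776597-18776896, plus strand: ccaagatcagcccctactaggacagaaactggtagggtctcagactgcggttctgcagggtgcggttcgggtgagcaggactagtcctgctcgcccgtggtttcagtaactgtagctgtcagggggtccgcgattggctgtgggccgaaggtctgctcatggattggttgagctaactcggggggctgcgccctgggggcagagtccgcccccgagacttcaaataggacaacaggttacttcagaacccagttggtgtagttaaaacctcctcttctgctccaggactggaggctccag

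Counted on both strands, GGAA occurred 9 times in the Tie1 window, 5 times in that of Kdr and 0 times in that of Cldn5. Emcn had 6 copies, Tek 2, and the Egfl7 windows 5, 4 and 1. The core is common: 96% of the 32851 windows in the table held at least 1 copy, with a median of 3, while 4.02% held none and 1.59% held at least 9. The longer form CAGGAAG, which contains the core, lay in 3 of the 8 windows (Emcn and 2 of Egfl7) and in 13.3% of all windows. CCGGAAG lay in 0 of the 8 and in 8.86% of all, AGATAA in 1 (Tek) and 11.2%, TATAAA in 0 and 13.6%, and CACCC in 5 and 57.5%. Whether these counts bear on the differences described next was not tested.

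The 10 markers read lower on average in GSL30 gastrocnemius than in WT gastrocnemius of the same age. All 10 log2 differences were below 0, while 53.5% of all probe sets lay above 0, and they ran from -0.92 (Tie1) to -0.28 (Egfl7), with a median of -0.61 against 0.03 over all probe sets tested. Cdh5, Esam, Pecam1, Cldn5, Tie1 and Ramp2 fell, which is 6 of 10 genes (7 of 14 probe sets), in a comparison where 2.20% of all probe sets passed in that direction. Mutant and WT arrays did not overlap for these same 6 genes, against 3.59% of all probe sets that were apart downward. Before adjustment 9 of the 10 had p under 0.05, against 11.0% of all probe sets. Emcn (adjusted p = 0.0511), Tek (0.0794), Kdr (0.108) and Egfl7 (0.342) did not pass.

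The knockout muscles lay on the other side of 0, and no member passed there. In MGSKO tibialis all 10 differences were above 0, with a median of 0.46 against 0.04 over all probe sets, and 0 of 10 genes passed, where 0.663% of probe sets passed upward. Before adjustment, 8 of the 10 had p under 0.05, against 8.44% of all probe sets, and 5 (Pecam1, Kdr, Tek, Emcn and Egfl7) had groups that did not overlap, against 5.20%. In MGSKO gastrocnemius 9 of 10 differences were above 0, with a median of 0.40 against 0.05, and 0 of 10 passed, where 0.0442% of probe sets passed upward. There 5 of the 10 had an unadjusted p under 0.05, against 6.96% of all probe sets, and 4 (Cdh5, Esam, Pecam1 and Tie1) had groups that did not overlap, against 7.26%. Differences above 0 were themselves the more frequent kind, at 56.7% of probe sets in tibialis and 56.5% in gastrocnemius.

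**Figure D1:**
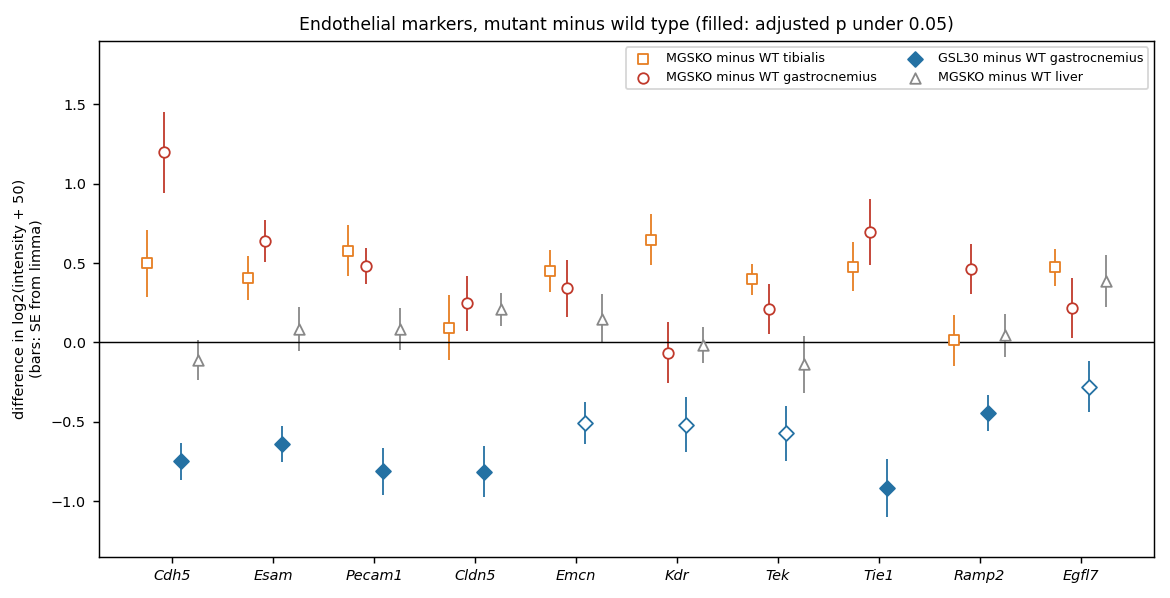
Log2 differences of the 10 endothelial markers, 1 probe set per gene, mutant minus WT, in 4 comparisons; bars are limma standard errors and filled symbols have an adjusted p under 0.05. The 10 GSL30 values lie below 0 and 6 of them are filled, while none of the MGSKO symbols is filled. Tie1 has no liver symbol because it was too dim to be tested there.

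Of the 4 junction genes, 3 were apart in both gastrocnemius pairs. Cdh5 encodes VE-cadherin, the adhesion molecule of endothelial adherens junctions. Cdh5 in tibialis read 2514, 3203, 2717 and 2365 in MGSKO, against 2938, 1498, 1866 and 1529 in WT, a difference of 0.50 (SE 0.21, adjusted p = 0.308). Cdh5 in gastrocnemius at 3 months read 3970.4, 2682 and 2838 in MGSKO, against 1714, 784, 1579.5, 1267 and 1538 in WT, a difference of 1.20 (SE 0.26, adjusted p = 0.181). Cdh5 in gastrocnemius at 8 months read 1649.7, 1778, 1714, 1972 and 2055 in GSL30, against 2946, 2833, 3255, 2898 and 3667 in WT, a difference of -0.75 (SE 0.12, adjusted p = 0.00706). The gastrocnemius groups did not overlap at either age, with MGSKO above WT and GSL30 below WT. In tibialis WT replicate 1 lay among the MGSKO arrays.

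Esam encodes an immunoglobulin-like adhesion molecule of endothelial tight junctions. Esam in tibialis read 4350.2, 4105, 3516 and 3262 in MGSKO, against 3288, 3024, 2585 and 2545 in WT, a difference of 0.41 (SE 0.14, adjusted p = 0.203). Esam in gastrocnemius at 3 months read 3448, 3416 and 3594 in MGSKO, against 2440.3, 2237, 1875, 2147 and 2473 in WT, a difference of 0.64 (SE 0.13, adjusted p = 0.168). Esam in gastrocnemius at 8 months read 2472, 2012, 2137, 2439 and 1868 in GSL30, against 3199, 3357, 3556, 3518 and 3444 in WT, a difference of -0.64 (SE 0.11, adjusted p = 0.0120). Neither gastrocnemius pair overlapped, and in tibialis only the lowest MGSKO array lay below the highest WT array. Esam had the smallest spread of the 10 genes within groups, with a pooled SD of 0.15 on the log2 scale, against 0.30 for Cdh5.

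Pecam1 encodes CD31, an adhesion molecule of endothelial cell borders that platelets and leukocytes also carry. Pecam1 in tibialis read 2579, 3221, 2459 and 2045 in MGSKO, against 1761, 2015, 1418 and 1604 in WT, a difference of 0.58 (SE 0.16, adjusted p = 0.133). Pecam1 in gastrocnemius at 3 months read 3066, 2960.4 and 2899 in MGSKO, against 2319, 2077, 1977, 2044 and 2185 in WT, a difference of 0.48 (SE 0.12, adjusted p = 0.230). Pecam1 in gastrocnemius at 8 months read 2191, 1581, 1445, 2441 and 1758 in GSL30, against 3323, 3669, 3373, 3041 and 3032 in WT, a difference of -0.81 (SE 0.15, adjusted p = 0.0155). The groups were apart in all 3 comparisons, upward in both MGSKO muscles and downward in GSL30.

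Cldn5 encodes claudin-5, a sealing protein of endothelial tight junctions. Cldn5 in tibialis read 1074, 1187, 2022 and 1660.4 in MGSKO, against 1052, 1552, 1398 and 1437 in WT, a difference of 0.09 (SE 0.21, adjusted p = 0.864). Cldn5 in gastrocnemius at 3 months read 1916, 1486 and 1768 in MGSKO, against 1447, 1695, 1085, 1366 and 1679.8 in WT, a difference of 0.25 (SE 0.17, adjusted p = 0.577). Cldn5 in gastrocnemius at 8 months read 1834, 1543, 1500.0, 1733 and 1535 in GSL30, against 2620.1, 4231, 3132, 2682 and 2172 in WT, a difference of -0.81 (SE 0.16, adjusted p = 0.0192). Every GSL30 array lay below every WT array, whereas both MGSKO pairs overlapped. The 8-month WT arrays were the brightest of the muscle groups for Cldn5, and replicate 2, which stood apart in hepatocyte RNA, was the highest of them. Without it the GSL30 difference was -0.68 (adjusted p = 0.0265), and without GSL30 replicate 2 it did not pass (-0.80, adjusted p = 0.0534).

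**Figure D2:**
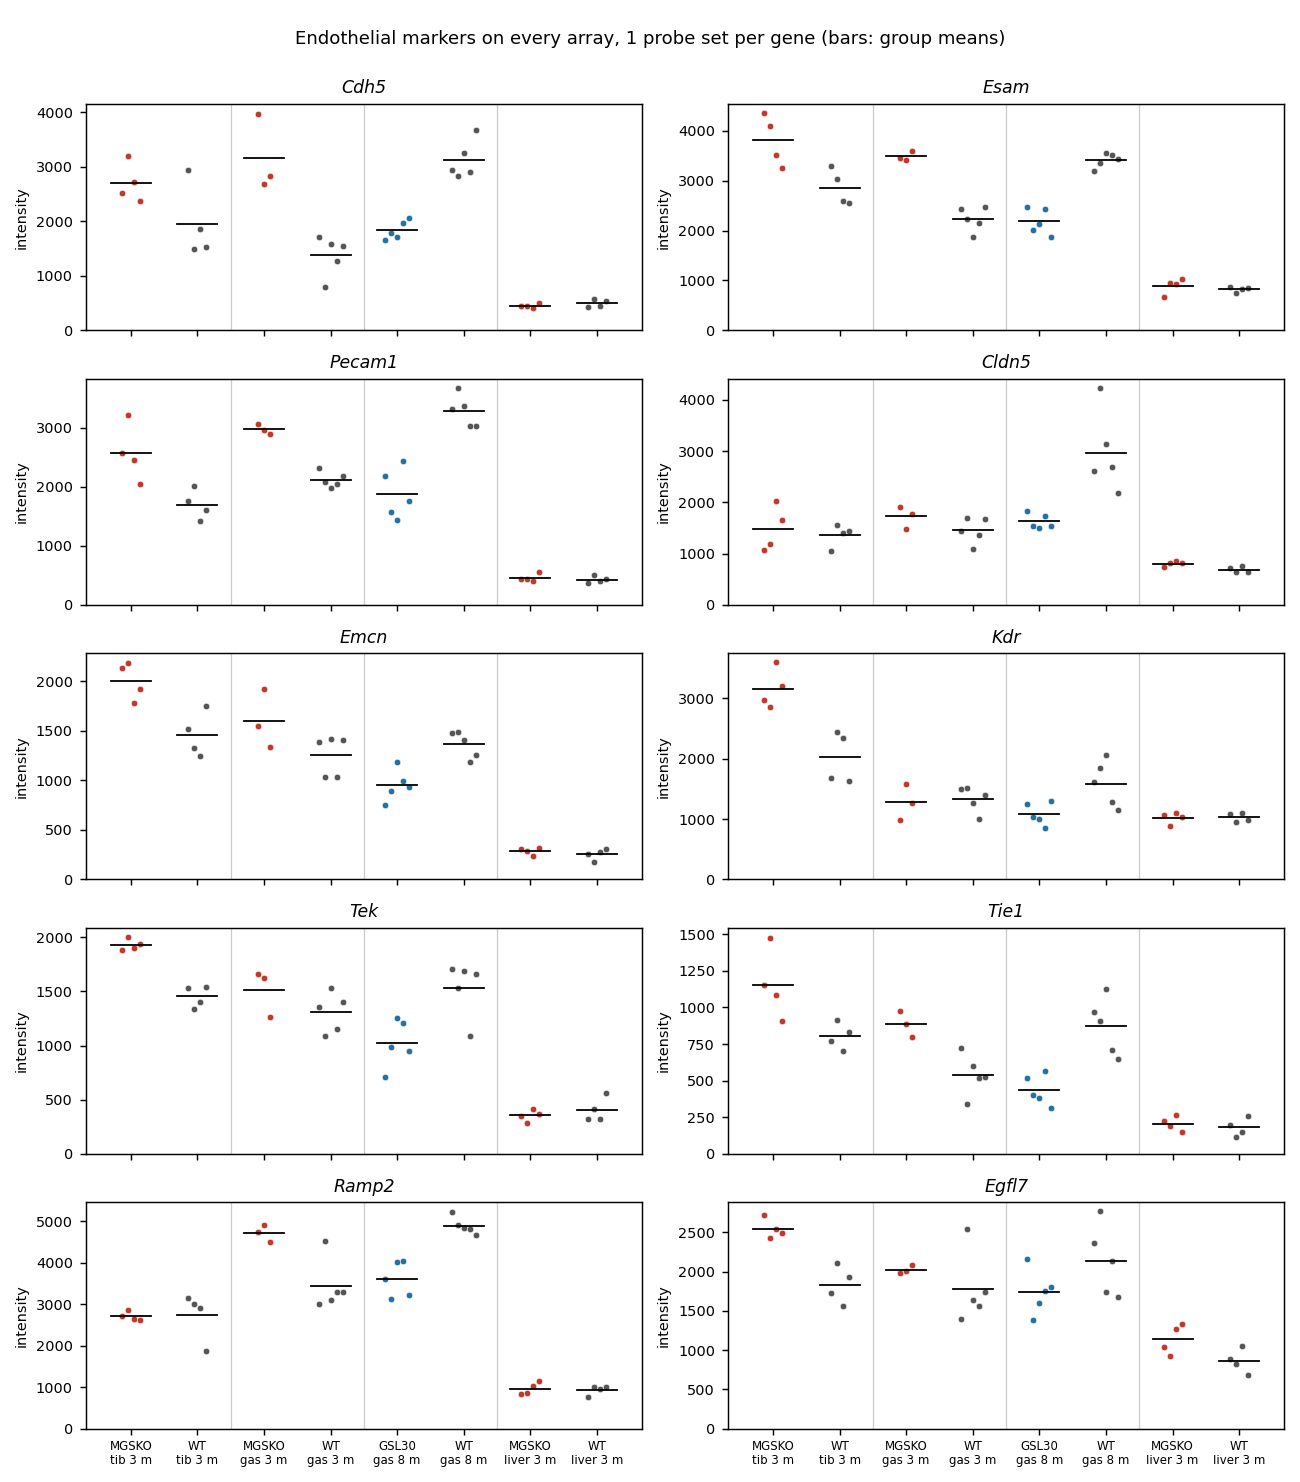
Intensity of each of the 10 endothelial markers on all 34 arrays, as deposited on a linear scale, by group (tib, tibialis; gas, gastrocnemius; m, months); points are arrays and bars are group means. For Cdh5, Esam and Pecam1 the MGSKO gastrocnemius points lie above WT and the GSL30 points below WT with no overlap, and the liver means lie lowest for all 10 genes.

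Among the receptor tyrosine kinases, Tie1 fell in GSL30 muscle while Kdr and Tek did not pass. Tie1 encodes an orphan receptor that modulates angiopoietin signalling through TIE2. Tie1 in tibialis read 1151, 1474, 1084 and 909.8 in MGSKO, against 774, 913, 705 and 835 in WT, a difference of 0.48 (SE 0.15, adjusted p = 0.187). Tie1 in gastrocnemius at 3 months read 977, 884 and 797 in MGSKO, against 721, 343, 599, 519 and 523 in WT, a difference of 0.69 (SE 0.21, adjusted p = 0.301). Tie1 in gastrocnemius at 8 months read 517, 404, 379.9, 567 and 316 in GSL30, against 968, 910.1, 1123, 707 and 645 in WT, a difference of -0.92 (SE 0.18, adjusted p = 0.0187). Both gastrocnemius pairs were apart, and in tibialis MGSKO replicate 4 lay just below the highest WT array. Without GSL30 replicate 2, Tie1 did not pass at 8 months (-0.90, adjusted p = 0.0521).

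Tek encodes TIE2, the receptor for angiopoietins. Tek in tibialis read 1884, 2001, 1898 and 1939 in MGSKO, against 1528, 1339.6, 1406 and 1544 in WT, a difference of 0.40 (SE 0.10, adjusted p = 0.0914). Tek in gastrocnemius at 3 months read 1662, 1627 and 1266 in MGSKO, against 1356, 1091, 1534, 1154 and 1399.8 in WT, a difference of 0.21 (SE 0.16, adjusted p = 0.606). Tek in gastrocnemius at 8 months read 712, 983, 1258, 1206 and 953 in GSL30, against 1705, 1528, 1688, 1089.5 and 1664 in WT, a difference of -0.57 (SE 0.17, adjusted p = 0.0794). The tibialis groups were apart, with both sets of 4 arrays close together. At 8 months the overlap came from WT replicate 4, the only WT array within the GSL30 range, and without it Tek passed (-0.69, adjusted p = 0.0435).

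Kdr encodes VEGFR2, the main signalling receptor for VEGF-A on endothelial cells. Kdr in tibialis read 2966, 2848, 3606 and 3198 in MGSKO, against 1678, 2436, 2342 and 1628 in WT, a difference of 0.65 (SE 0.16, adjusted p = 0.0936). Kdr in gastrocnemius at 3 months read 987, 1587 and 1271 in MGSKO, against 1493, 1506, 1270.5, 999 and 1399 in WT, a difference of -0.07 (SE 0.19, adjusted p = 0.907). Kdr in gastrocnemius at 8 months read 1242, 1027, 993, 850.4 and 1291 in GSL30, against 1611, 1842, 2053, 1278 and 1152 in WT, a difference of -0.52 (SE 0.17, adjusted p = 0.108). All 4 MGSKO tibialis arrays lay above all 4 WT arrays, and the gastrocnemius pairs overlapped at both ages. Kdr was the only member whose difference was below 0 in MGSKO gastrocnemius, and it turned to 0.10 without MGSKO replicate 1. The effect of the knockout on Kdr in gastrocnemius minus that in tibialis was -0.71 (SE 0.25, adjusted p = 0.432), which did not pass.

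Ramp2 encodes an accessory protein that turns the calcitonin-like receptor into a receptor for adrenomedullin. Ramp2 in tibialis read 2709.9, 2848, 2651 and 2629 in MGSKO, against 3155, 2992, 2915 and 1882 in WT, a difference of 0.01 (SE 0.16, adjusted p = 0.979). Ramp2 in gastrocnemius at 3 months read 4735, 4921 and 4504 in MGSKO, against 3009, 4536, 3109, 3287 and 3294 in WT, a difference of 0.46 (SE 0.16, adjusted p = 0.346). Ramp2 in gastrocnemius at 8 months read 3616, 3118, 4017, 4041 and 3217 in GSL30, against 5229.7, 4918, 4848, 4803 and 4662 in WT, a difference of -0.44 (SE 0.11, adjusted p = 0.0461). The 8-month groups were apart. At 3 months WT gastrocnemius replicate 2, the muscle array richest in hepatocyte RNA, lay just above the lowest MGSKO array. In tibialis WT replicate 4 was far below the other WT arrays. The pass of Ramp2 in GSL30 muscle was narrow: it was kept in 1 of 10 fits that left out an array. The adjusted p was 0.0930 with no filter on dim probe sets and 0.0706 without the 8-month WT array that stood apart in hepatocyte RNA.

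Emcn encodes endomucin, a sialomucin of capillary and venous endothelium. Emcn in tibialis read 2129, 2180.4, 1775 and 1916 in MGSKO, against 1517, 1324, 1247 and 1744 in WT, a difference of 0.45 (SE 0.13, adjusted p = 0.156). Emcn in gastrocnemius at 3 months read 1544, 1922 and 1339 in MGSKO, against 1389, 1035, 1412, 1029.9 and 1406 in WT, a difference of 0.34 (SE 0.18, adjusted p = 0.493). Emcn in gastrocnemius at 8 months read 746, 889, 1183, 994 and 929.8 in GSL30, against 1476, 1486, 1409, 1181 and 1253 in WT, a difference of -0.51 (SE 0.13, adjusted p = 0.0511). The tibialis groups were apart and the gastrocnemius pairs overlapped, at 8 months by a single pair of nearly equal arrays. Without the GSL30 array of that pair, replicate 3, Emcn passed (-0.59, adjusted p = 0.0445).

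Egfl7 encodes a matrix protein secreted by endothelial cells. Egfl7 in tibialis read 2720.1, 2432, 2544 and 2489.5 in MGSKO, against 1726, 2107, 1557 and 1933 in WT, a difference of 0.47 (SE 0.12, adjusted p = 0.0989). Egfl7 in gastrocnemius at 3 months read 1977, 2012 and 2084 in MGSKO, against 1395, 2538, 1637, 1562 and 1740.0 in WT, a difference of 0.22 (SE 0.19, adjusted p = 0.650). Egfl7 in gastrocnemius at 8 months read 2167, 1387, 1602, 1758 and 1800.5 in GSL30, against 2361, 2777, 1737, 2142 and 1683 in WT, a difference of -0.28 (SE 0.16, adjusted p = 0.342). The tibialis groups were apart and both gastrocnemius pairs overlapped.

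The 4 probe sets annotated to Egfl7 disagreed on the size of the GSL30 difference. Probe set 1451428_x_at read 771, 773, 897, 1138 and 628 in GSL30, against 2441, 2052, 1940.5, 1979.9 and 1726 in WT, a difference of -1.24 (SE 0.15, adjusted p = 0.00334). Its groups were far apart, and its difference in MGSKO gastrocnemius was 0.52 (adjusted p = 0.272) with groups also apart. Probe set 1435823_x_at gave -0.27 (adjusted p = 0.345) in GSL30 with overlapping groups, close to the brightest probe set. The suffix marks probe sets whose probes can match other transcripts. The dimmest, 1421335_a_at, gave -0.24 (adjusted p = 0.516), and the RefSeq table lists its accession under Vezf1, another gene, so its values may not be those of Egfl7.

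The second probe set of Cdh5, 1422047_at, was dimmer and scattered more than the first. It read 1359, 824, 804, 898 and 537 in GSL30, against 1472, 1449.8, 1070.1, 1601 and 219 in WT, a difference of -0.19 (SE 0.44, adjusted p = 0.831). WT replicate 5 was the lowest of the 10 arrays here, although it was the highest by the brighter probe set. In MGSKO gastrocnemius this probe set read 327, 1306 and 639, against 919, 446, 808, 501 and 802 in WT, a difference of -0.03 (adjusted p = 0.982). So the separation of Cdh5 in gastrocnemius rests on the brighter probe set.

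**Figure D3:**
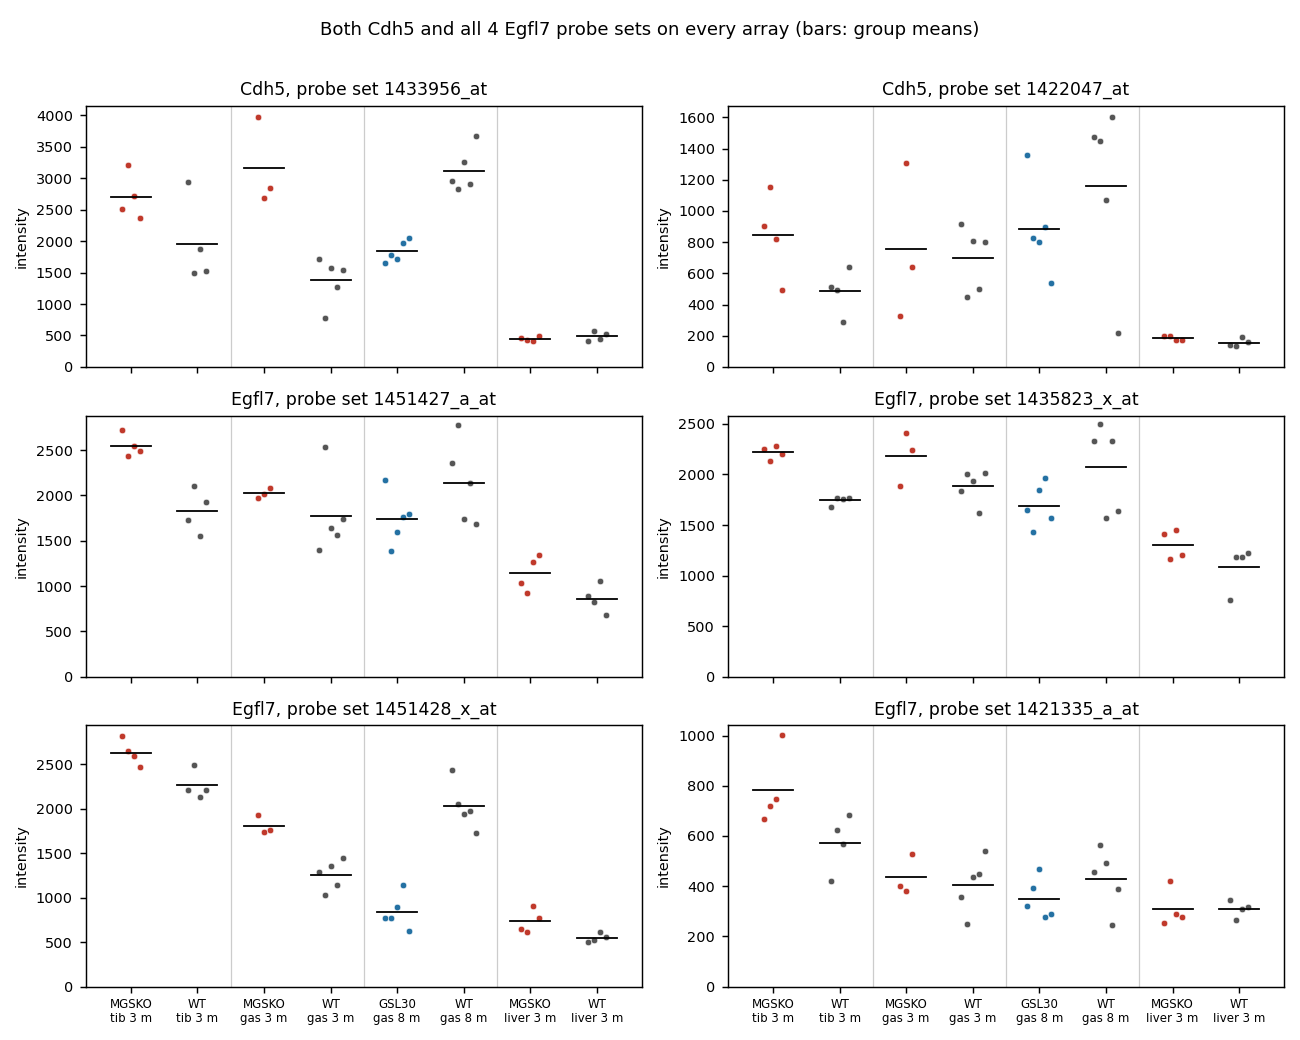
Intensity by array and group for both Cdh5 probe sets and all 4 probe sets annotated to Egfl7 (linear scale; tib, tibialis; gas, gastrocnemius; m, months); points are arrays and bars are group means. Probe sets 1433956_at and 1451428_x_at separate GSL30 from WT at 8 months, while the other 4 overlap.

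The effects of gain and loss in gastrocnemius were set against each other in 1 fit, in which each mutant had its own WT group. The GSL30 effect minus the MGSKO effect was below 0 for all 10 genes (47.6% of all probe sets lay above 0), and 7 of 10 passed (8 of 14 probe sets), where 1.65% of all probe sets passed in that direction. The median was -0.98 against -0.03 over all probe sets tested. The differences between effects were -1.95 (adjusted p = 0.000739) for Cdh5, -1.61 (adjusted p = 0.00470) for Tie1 and -1.29 (adjusted p = 0.00148) for Pecam1. Esam gave -1.28 (adjusted p = 0.000238) and Cldn5 gave -1.06 (adjusted p = 0.0272). Ramp2 (-0.91, adjusted p = 0.00994) and Emcn (-0.85, adjusted p = 0.0442) also passed, the last without having passed in either comparison alone. With 1 array left out in turn, Emcn passed in 6 of 18 fits and Cldn5 in 15, and the other 5 genes in all 18. Without the arrays rich in hepatocyte RNA, Emcn (adjusted p = 0.236) and Cldn5 (0.0729) did not pass, nor did they with no filter on dim probe sets (0.0871 and 0.0547). Tek gave -0.78 (adjusted p = 0.0998), Egfl7 -0.49 (adjusted p = 0.314) and Kdr -0.45 (adjusted p = 0.382), and these did not pass. The mutants differed in age as well as genotype, 8 against 3 months, so the difference between effects covers both. For Esam, mean levels were 3486 ± 94.9 in MGSKO and 2235 ± 243 in WT at 3 months, and 2185 ± 264 in GSL30 and 3415 ± 143 in WT at 8 months (SD, n = 3, 5, 5 and 5), so that the 8-month WT mean lay close to the 3-month MGSKO mean. The age and the array set of the WT groups cannot be told apart.

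The knockout effects in the 2 muscles were set against each other in the same way, and no member passed. The effect in gastrocnemius minus that in tibialis was above 0 for 5 of 10 genes (51.9% of all probe sets), with a median of 0.03, and 0 of 10 passed in limma, where 0.0147% of all probe sets passed in either direction. Kdr alone had an unadjusted p under 0.05, downward, as did 4.19% of all probe sets. The difference was 0.70 (SE 0.35, adjusted p = 0.509) for Cdh5 and 0.45 (SE 0.23, adjusted p = 0.516) for Ramp2.

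In liver, where Gys1 averaged 37.8 in MGSKO and 56.8 in WT, no member passed. Tie1 and the dimmer Cdh5 probe set were under the filter for dim probe sets, and 0 of the 9 genes tested passed, where 0.00737% of all probe sets passed in either direction. The median was 0.08 against 0.02 over all probe sets. Egfl7 read 1038, 922, 1267 and 1339 in MGSKO liver, against 886, 826, 1056 and 677 in WT liver, a difference of 0.39 (SE 0.16, adjusted p = 0.573). It was the 1 gene with an unadjusted p under 0.05, against 4.70% of all probe sets upward, and its groups overlapped. Its probe set 1451428_x_at gave 0.38 (adjusted p = 0.504) with groups apart, as were 2.76% of all probe sets upward.

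Other endothelial genes followed the members in part. For this list and those that follow, 2.20% of all probe sets passed downward and 2.11% upward in GSL30. Before adjustment, 11.0% of all probe sets were lower and 10.4% higher in GSL30. In MGSKO tibialis 8.44% were higher and 6.53% lower, and in MGSKO gastrocnemius 6.96% were higher. Of 23 further endothelial genes tested in GSL30 gastrocnemius, 20 had differences below 0, with a median of -0.37, and 3 passed. These were Vwf, the clotting glycoprotein stored by endothelial cells (-0.71, SE 0.16, adjusted p = 0.0302), Adgrl4, an adhesion receptor of endothelium (-0.70, SE 0.14, adjusted p = 0.0192), and Cd93, a surface glycoprotein (-0.65, SE 0.15, adjusted p = 0.0338). Adgrl4 averaged 1275 ± 152 in GSL30 and 2113 ± 395 in WT (SD, n = 5 each). Cav1, which forms caveolae in endothelium and other cells, gave -0.56 (SE 0.16, adjusted p = 0.0724) and did not pass. In MGSKO tibialis 20 of 23 were above 0 (median 0.23) and in MGSKO gastrocnemius 19 of 22 (median 0.22), with 0 passing in either, although 6 in each had an unadjusted p under 0.05. The smallest p belonged to Cd93 in tibialis (0.49, SE 0.16, adjusted p = 0.188), where Ptprb, an endothelial phosphatase, followed (0.46, adjusted p = 0.246). In MGSKO gastrocnemius Cd93 gave 0.63 (adjusted p = 0.346) and Cav1 0.43 (adjusted p = 0.352). Vwf gave -0.04 in MGSKO tibialis and -0.03 in MGSKO gastrocnemius.

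Genes of muscle capillaries that handle fuel, gas and water were next. Cd36, a fatty acid transporter shared with oxidative fibres, averaged 9272 ± 1092 in GSL30 and 16485 ± 1312 in WT (SD, n = 5 each) and fell (-0.83, SE 0.12, adjusted p = 0.00511). Car4, a carbonic anhydrase of the capillary surface, averaged 662 ± 95.3 in GSL30 and 1249.8 ± 262 in WT and fell as well (-0.85, SE 0.16, adjusted p = 0.0156). These were 2 of 7 tested, with 6 of the 7 below 0. In MGSKO gastrocnemius all 7 were above 0 and 0 passed (3 before adjustment, at p under 0.05). There Car4 gave 1.06 (SE 0.21, adjusted p = 0.150) and Aqp1, the water channel, gave 0.47 (SE 0.13, adjusted p = 0.278). In MGSKO tibialis 6 of 7 were above 0 and 0 passed (4 before adjustment), with Car4 at 0.43 (adjusted p = 0.182) and Cd36 at 0.60 (adjusted p = 0.231).

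Of 8 arterial and venous genes tested in GSL30, 7 were below 0 and 2 fell. These were Notch4, an endothelial Notch receptor (-0.76, SE 0.17, adjusted p = 0.0306), and Efnb2, the ephrin of arterial endothelium (-0.77, SE 0.19, adjusted p = 0.0452). Gja4, a connexin of arterial endothelium, gave -0.42 (SE 0.18, adjusted p = 0.199). In MGSKO gastrocnemius 6 of 8 were above 0, with Gja4 at 0.67 (SE 0.18, adjusted p = 0.269) and Notch4 at 0.62 (adjusted p = 0.333). In MGSKO tibialis 9 of 10 were above 0, with Unc5b, a guidance receptor, at 0.78 (SE 0.23, adjusted p = 0.156) and Notch4 at 0.46 (adjusted p = 0.244), and 0 passed in either muscle (2 and 4 before adjustment). Lymphatic genes gave 0 of 4 passing in each muscle comparison (1 before adjustment in MGSKO tibialis, 0 in MGSKO gastrocnemius and 1 in GSL30), with Flt4 (VEGFR3) at 0.32, 0.43 and -0.22 in MGSKO tibialis, MGSKO gastrocnemius and GSL30 gastrocnemius. Lyve1, a hyaluronan receptor, gave -0.37 (adjusted p = 0.370) in MGSKO tibialis, Pdpn, podoplanin, gave 0.18 (adjusted p = 0.655) in MGSKO gastrocnemius, and Reln, reelin, gave -0.44 (adjusted p = 0.153) in GSL30.

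Among ligands and partners of the receptors, Vegfa, the ligand of VEGFR2, fell in GSL30 gastrocnemius, where it averaged 1019.9 ± 106, against 1961 ± 260.5 in WT (SD, n = 5 each, -0.91, SE 0.12, adjusted p = 0.00457). It averaged 4393 ± 276 in MGSKO tibialis and 3028 ± 387 in WT tibialis (0.54, SE 0.12, adjusted p = 0.0725), and gave 0.52 (SE 0.26, adjusted p = 0.484) in MGSKO gastrocnemius, neither of which passed. Ramp1, which directs the partner receptor of Ramp2 to the peptide CGRP, rose in GSL30 (0.54, SE 0.13, adjusted p = 0.0333) while Ramp2 fell, and gave -0.84 (SE 0.18, adjusted p = 0.0540) in MGSKO tibialis. Flt1, a VEGF receptor that acts largely as a decoy, gave 0.83 (SE 0.22, adjusted p = 0.269) in MGSKO gastrocnemius and -0.34 (SE 0.17, adjusted p = 0.265) in GSL30. Vegfd, a VEGF-family ligand, gave -0.44 (adjusted p = 0.466) in MGSKO gastrocnemius. In all, 1 of 15 tested rose and 1 fell in GSL30, while 0 of 17 passed in MGSKO tibialis (8 before adjustment, 6 of them upward) and 0 of 16 in MGSKO gastrocnemius (1 before adjustment).

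**Figure D4:**
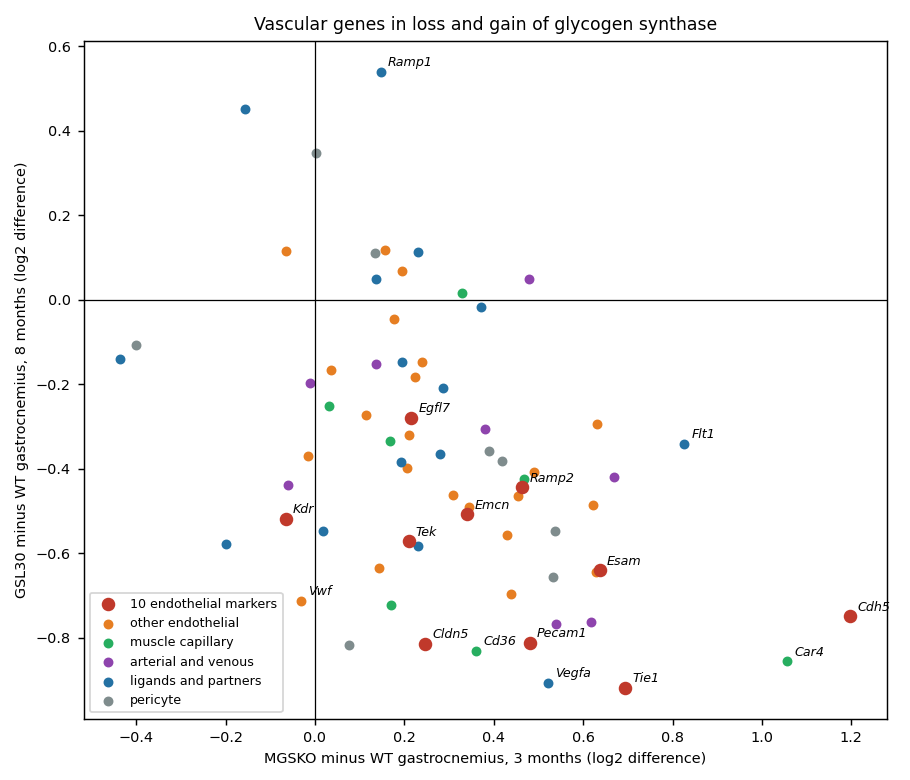
Log2 differences of the 10 endothelial markers and 5 further vascular lists, MGSKO minus WT gastrocnemius at 3 months on the horizontal axis and GSL30 minus WT gastrocnemius at 8 months on the vertical axis; each point is a gene. Of the 10 markers, 9 lie at the lower right, above 0 in MGSKO and below 0 in GSL30, and Kdr lies at the lower left.

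Some genes of the cells that wrap vessels also fell in GSL30. Of 8 pericyte genes tested in GSL30, Kcnj8, a potassium channel subunit (-0.66, SE 0.15, adjusted p = 0.0294), Notch3 (-0.55, SE 0.12, adjusted p = 0.0298) and Pdgfrb, the PDGF receptor of pericytes (-0.82, SE 0.20, adjusted p = 0.0429), fell. Another 2 of the 8 lay above 0, Abcc9 (0.35, with p under 0.05 before adjustment only) and Cspg4 (0.11). In MGSKO tibialis 7 of 8 were above 0 and 0 passed (3 before adjustment), with Kcnj8 at 0.58 (SE 0.12, adjusted p = 0.0531) and Notch3 at 0.49 (adjusted p = 0.128). In MGSKO gastrocnemius likewise 7 of 8 were above 0 and 0 passed (3 before adjustment), with Kcnj8 at 0.53 (adjusted p = 0.280) and Rgs5, a pericyte signalling regulator, at 0.42 (adjusted p = 0.302). Of 5 smooth muscle genes tested, Myh11, the smooth muscle myosin, fell in GSL30 to 482 ± 34.5, against 1054 ± 185 in WT (-1.04, SE 0.13, adjusted p = 0.00323), and Tagln and Acta2 fell too (-0.93 and -0.63), while the other 2, Smtn (0.45, adjusted p = 0.119) and Lmod1 (0.58, adjusted p = 0.205), were above 0, both with p under 0.05 before adjustment only. In MGSKO gastrocnemius all 5 were above 0 and 0 passed (3 before adjustment), with Myh11 at 0.93 (SE 0.14, adjusted p = 0.0597) and Tagln at 0.39 (adjusted p = 0.358). In MGSKO tibialis 4 of 6 were above 0 and 0 passed (1 before adjustment), with Myh11 at 0.47 (adjusted p = 0.0804) and Cnn1, calponin, at 0.46 (adjusted p = 0.441).

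Genes of muscle fibres and other cells passed in the same comparisons. Of 8 slow and oxidative fibre genes, 7 fell in GSL30. These were the slow myosin genes Myh7 (-1.25), Myl2 (-0.97) and Myl3 (-0.89), the slow troponin genes Tnnt1 (-1.28), Tnnc1 (-1.01) and Tnni1 (-0.76), and the calcium pump gene Atp2a2 (-0.68). The mean log2 level of the 8 was 11.83 to 12.58 in GSL30 and 12.81 to 13.25 in WT. In MGSKO gastrocnemius the mean was 13.40 to 13.84, against 12.24 to 13.12 in WT, while in tibialis it overlapped (11.00 to 12.00 in MGSKO and 10.92 to 11.45 in WT). Myl3 was the 1 gene of the list to rise in MGSKO tibialis (2.004), where 3 of 8 were above 0 and the list median was -0.08. It was also the 1 to rise in MGSKO gastrocnemius (1.11), where 7 of 8 were above 0, those 7 with p under 0.05 before adjustment. Of 10 fast fibre genes tested in GSL30, 8 were above 0 and 1 fell (Myh2, -0.65, adjusted p = 0.0282). Of 7 liver sinusoid genes, 1 fell (Mrc1, a mannose receptor that macrophages also carry, -0.45, adjusted p = 0.0482). The mean of the 10 endothelial markers was 11.09 to 11.26 in MGSKO and 10.70 to 10.85 in WT tibialis, 10.98 to 11.09 in MGSKO and 10.48 to 10.70 in WT gastrocnemius, and 10.41 to 10.66 in GSL30 and 11.00 to 11.29 in WT. Means of the muscle capillary genes were apart in all 3 pairs as well. In tibialis they were 12.31 to 12.44 in MGSKO and 11.90 to 12.23 in WT. Pericyte means were also apart there (10.92 to 11.07 and 10.58 to 10.69). So were arterial and venous means (9.02 to 9.13 and 8.62 to 8.91) and, narrowly, those of ligands and partners (9.891 to 10.229 and 9.712 to 9.889). Arterial and venous means were also apart at 8 months (7.97 to 8.32 in GSL30 and 8.40 to 8.79 in WT) but overlapped in gastrocnemius at 3 months. Those of ligands and partners overlapped in both gastrocnemius pairs. Means of the other endothelial genes overlapped in tibialis (10.31 to 10.48 in MGSKO and 10.07 to 10.32 in WT). They overlapped in gastrocnemius at 3 months too (10.12 to 10.33 and 9.80 to 10.18). At 8 months they were apart (9.79 to 10.07 in GSL30 and 10.09 to 10.43 in WT). Of 9 fibroblast and tendon genes 3 fell in GSL30 (Thbs4, Pdgfra and Fmod), and of 2 Schwann cell genes tested 1 fell (Mbp). In MGSKO gastrocnemius both Schwann cell genes were above 0 with groups apart, Mbp at 0.55 (adjusted p = 0.291) and Pmp22 at 0.54 (adjusted p = 0.230). Groups were apart upward for 7.26% of all probe sets there. Fmod also fell in MGSKO tibialis, where 7 of the 9 were below 0. Leukocyte, platelet, red cell and adipocyte genes gave 0 passing in any of the 3 muscle comparisons, although before adjustment all 3 adipocyte genes tested, 1 red cell gene and 1 of 8 leukocyte genes were lower in GSL30 and 1 of 2 platelet genes higher, with leukocyte means of 10.25 to 10.93 in GSL30 and 10.39 to 10.80 in WT. The part of the fibre and other genes in the marker result was not tested.

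**Figure D5:**
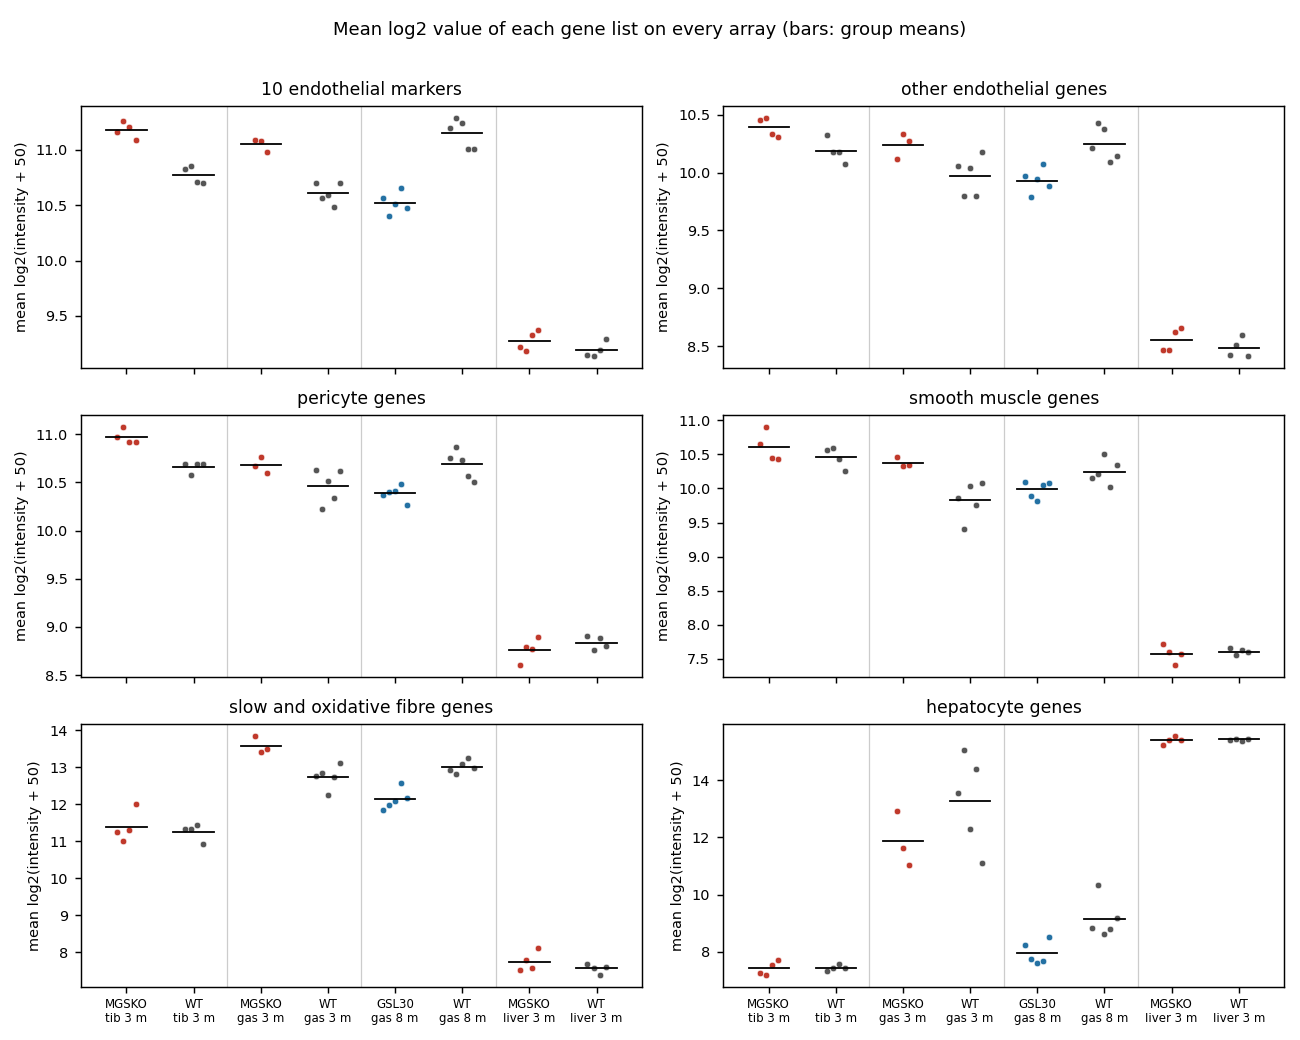
Mean log2(intensity + 50) of 6 gene lists on each array, by group (tib, tibialis; gas, gastrocnemius; m, months); points are arrays and bars are group means. The 10 endothelial markers are apart between mutant and WT in all 3 muscle pairs, the slow and oxidative fibre genes in the gastrocnemius pairs but not in tibialis, and the hepatocyte genes are high and scattered in 3-month gastrocnemius. The other endothelial genes are apart at 8 months only. Pericyte genes are apart in tibialis and at 8 months, and smooth muscle genes in 3-month gastrocnemius only.

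Hepatocyte genes differed between GSL30 and WT as well. Their mean log2 level was 7.60 to 8.51 in GSL30 and 8.60 to 10.33 in WT, and 3 of 6 tested fell (Ttr, Alb and Apoa2). With that mean as a covariate, 0 of the 14 member probe sets passed, while 4 of 13576 probe sets passed in all, against 585 without it. Because the covariate did not overlap between GSL30 and WT, this fit cannot separate hepatocyte RNA from genotype. The differences in that fit were -0.78 for Cdh5 (adjusted p = 0.0946), -0.70 for Esam (0.104), -0.68 for Pecam1 (0.152), -1.04 for Tie1 (0.112), -0.50 for Cldn5 (0.253) and -0.52 for Ramp2 (0.152). Among those that had not passed they were -0.54 for Emcn (0.200), -0.71 for Tek (0.189), -0.30 for Kdr (0.547) and 0.07 for Egfl7 (0.885). Without WT replicate 2, the array richest in hepatocyte RNA, 6 of 14 probe sets passed and Cdh5 stood at -0.78 (adjusted p = 0.0138). At 3 months, without WT replicates 1, 2 and 4, the MGSKO differences were 0.98 for Cdh5 (adjusted p = 0.473), 0.68 for Esam (0.506), 0.51 for Pecam1 (0.540) and 0.61 for Tie1 (0.512), with 2 WT arrays left. They were 0.55 for Ramp2, 0.33 for Cldn5, 0.26 for Egfl7 (0.35 for its probe set 1451428_x_at) and -0.08 for Kdr, none of which passed. Emcn stood at 0.16 and Tek at 0.04, against 0.34 and 0.21 with all arrays. MGSKO replicate 1, just under the limit for leaving arrays out, was kept in this fit.

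The 10 members did not track each other equally across the 26 muscle arrays. After subtraction of the mean of each array set, Pecam1 followed the mean log2 profile of the 10 genes most closely (Pearson r = 0.94), followed by Esam (0.92) and Tie1 (0.91), while Kdr (0.63) and the brightest Egfl7 probe set (0.60) followed it least among the 10. Egfl7 probe set 1451428_x_at stood at 0.89. Each gene is itself part of that profile. After subtraction of group means, r with the profile was 0.73 for Pecam1, 0.71 for Tie1 and 0.48 for Esam. It was 0.25 for Cdh5 and 0.24 for the brightest Egfl7 probe set. Pairs of members then ran from -0.61 (Cdh5 and Egfl7) to 0.77 (Emcn and Tek). The median r of a member with the others ran from -0.06 (Tek) to 0.30 (Tie1). Outside the members, the genes most like the profile were Ushbp1 (r = 0.91), Bmp6 (0.90), Kcnj8 (0.90), Myh11 (0.88), Adgrl4 (0.87), Col4a1 (0.87), Xdh (0.87), Dock9 (0.86), Flna (0.86) and Fbp2 (0.85). The median over 12491 probe sets was 0.02. These are descriptions over arrays that share sets and genotypes, and after subtraction of group means the correlation of Myh11 was -0.15 and that of Dock9 0.07.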

How the data were processed

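The authors deposited intensity on a linear scale for 22690 probe sets on each of 34 arrays, and these values were analysed unchanged. RNA was extracted with TRIzol and RNeasy and labelled from about 5 µg (muscle) or 10 µg (liver), per the labels. Which software summarised the probes is not given in these sources. After dropping 2% of probe sets at each end, array means ran from 1000.34 to 1000.49, so each array had been scaled to about 1000. Array medians were 296.35 to 440.3. The number of arrays limits the precision.

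From these, log2(intensity + 50) was taken without further normalization and limma 3.58.1 (R 4.3.3, functions lmFit and eBayes) was run separately for every comparison, on the arrays of its groups. Differences between effects were contrasts over 4 groups. Left out were 64 control probe sets and the dimmest 40% by mean log2 value, leaving 13576. P-values were adjusted by Benjamini-Hochberg over these. The fits were tested on simulated data.

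Symbols came from the platform annotation (20393 probe sets with 1 symbol, 691 with several, 1606 with none), updated through gene identifiers. Of 176 listed genes 162 had a probe set. Members, lists and tests were chosen with earlier results of these data known. The labels do not say that arrays came from separate animals, so p-values measure the spread between these samples, which may be technical. Named were all members, Gys1, listed genes that passed, the 2 smallest p per vascular list and comparison, and the 10 genes most like the members. Promoter sequences are from RefSeq (GRCm38.p6). Alternatives were quantile normalization, pseudocounts of 10 and 200, no dim filter, 1 fit over 34 arrays, the mean over probe sets, each array left out, a hepatocyte covariate, a block of title numbers (added after seeing the data), and arrays rich in hepatocyte RNA left out (mean over 13 at 3 months or 9.5 at 8 months).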

Additional observations from a re-analysis of the deposited data

Results flagged for a closer look

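The GSL30 effect differed from the MGSKO effect in gastrocnemius for 8 member probe sets in limma, with each mutant set against its own WT group. The log2 differences between effects were -1.95 (adjusted p = 0.000739) for Cdh5 (1433956_at), -1.28 (adjusted p = 0.000238) for Esam, -1.29 (adjusted p = 0.00148) for Pecam1, -1.06 (adjusted p = 0.0272) for Cldn5 and -0.91 (adjusted p = 0.00994) for Ramp2. Those for Emcn, Tie1 and Egfl7 (1451428_x_at) were -0.85 (adjusted p = 0.0442), -1.61 (adjusted p = 0.00470) and -1.76 (adjusted p = 0.000238). Age and array set differ between the 2 pairs and cannot be told apart from genotype here.

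Of 70 groups of 4 or 5 arrays checked, 3 held an array far from the others, and about 1 in 20 groups is marked by chance. Ramp2 read 1881.9 on WT tibialis replicate 4, against 2915 to 3155 on the others, and 4535.9 on WT gastrocnemius replicate 2 at 3 months, against 3008.8 to 3294. That gastrocnemius array was the muscle array richest in hepatocyte RNA, at 66.2% of the WT liver level. Tek read 1089.5 on WT gastrocnemius replicate 4 at 8 months, against 1528.3 to 1704.7 on the others.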

How the results depend on the processing

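No paired analysis was possible because mutant and WT arrays of one set share no title number. Numbers do recur across sets, though number 5 is MGSKO in tibialis and WT in gastrocnemius. Same-numbered arrays of 1 genotype did not deviate together (correlations of -0.118 to 0.0558 over 7 tibialis and gastrocnemius pairs, 0.0235 to 0.128 over 3 WT tibialis and liver pairs). With the number as a replicate block, chosen after seeing the data, 0 rather than 2 probe sets passed in limma for gastrocnemius minus tibialis (members 0 of 14, with 2 before adjustment). The WT tibialis minus liver median was 1.67 with 14 of 14 passing. In that comparison 41.1% of all probe sets passed upward in the main fit, and 8379 to 11682 passed in either direction over the alternatives. Limits are the 3 to 5 arrays per group, array sets that coincide with tissue and age, and RNA of hepatocyte genes in gastrocnemius; the causes of the changes below were not tested, beyond fewer arrays or fewer probe sets where an alternative removes them.

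All muscle medians of the 10 members kept their sign, except the difference between muscles, near 0, which was -0.0643 with the mean over probe sets. With the all-array fit, 2 of 14 member probe sets passed in MGSKO tibialis (Pecam1, adjusted p = 0.0226, and Kdr, 0.0394), 3 in MGSKO gastrocnemius (Cdh5, Esam and Egfl7 1451428_x_at) and 10 rather than 7 in GSL30 (adding Tek, 0.0146, Emcn, 0.0172, and Kdr, 0.0329). With the hepatocyte covariate, which did not overlap between GSL30 and WT, 0 passed in GSL30. The WT tibialis minus liver median was 1.64 with quantile normalization, 1.44 with a pseudocount of 200 and 1.66 with the mean over probe sets.

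Probe sets passing in all were 190 in MGSKO tibialis (96 with no filter, 291 in the all-array fit). In MGSKO gastrocnemius they were 20 (7, 306, and 1 without the arrays rich in hepatocyte RNA). In GSL30 they were 585 (259, 1093, and 4 with the covariate), and in liver 1 (3 with a pseudocount of 200, 32 in the all-array fit). For gastrocnemius minus tibialis they were 2 (1 with a pseudocount of 10, 6 with 200, 0 with no filter, 6 in the all-array fit). For GSL30 minus MGSKO they were 312 (193 with no filter, 670 in the all-array fit, 560 with the covariate, 139 without the rich arrays).

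Leaving out 1 array gave 63 to 300, 7 to 25, 182 to 772 and 1 to 8 passing in MGSKO tibialis, MGSKO gastrocnemius, GSL30 and liver, 0 to 7 for gastrocnemius minus tibialis and 152 to 448 for GSL30 minus MGSKO. Member probe sets passing were 4 to 7 in GSL30 (4 without GSL30 replicate 2) and 6 to 9 for GSL30 minus MGSKO. In GSL30, Cdh5, Esam, Pecam1 and Egfl7 1451428_x_at passed in 10 of 10 such fits, Tie1 and Cldn5 in 9 and Ramp2 in 1. The median members' difference ran from -0.66 to -0.58 in GSL30, 0.39 to 0.48 in MGSKO tibialis, 0.36 to 0.48 in MGSKO gastrocnemius, -0.0028 to 0.10 in liver and -0.03 to 0.07 between muscles, and 1.65 to 1.81 for tibialis minus liver.

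Signs turned for these values, none of which passed. In MGSKO gastrocnemius Cdh5 1422047_at was 0.0515 with quantile normalization and -0.50 to 0.42 with 1 array left out, Egfl7 1421335_a_at was -0.13 with the covariate, -0.14 without the rich arrays and -0.0218 to 0.22 with 1 array left out, and Kdr ran from -0.23 to 0.10. In GSL30 Egfl7 1451427_a_at was 0.0665 with the covariate. For GSL30 minus MGSKO without the rich arrays, Egfl7 1421335_a_at was 0.0061 and Cdh5 1422047_at 0.22, the last -0.65 to 0.31 with 1 array left out. In tibialis Cldn5 ran from -0.0650 to 0.23 and Ramp2 from -0.15 to 0.0893. Between muscles Pecam1 ran from -0.20 to 0.0137 and Emcn from -0.25 to 0.0074. In liver Ramp2 ran from -0.0463 to 0.10, Tek from -0.23 to 0.0136, Pecam1 from -0.0028 to 0.16, Kdr from -0.0539 to 0.0499 and Egfl7 1421335_a_at from -0.15 to 0.0613.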
